A study of Mus musculus with 9 samples.

Results

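The genes described here are the receptors for the 3 myeloid colony-stimulating factors (CSFs) and 1 of the ligands. They are Csf1r, the receptor for macrophage CSF (M-CSF); Csf2ra, Csf2rb and Csf2rb2, subunits of receptors for granulocyte-macrophage CSF (GM-CSF) and interleukin 3; Csf3r, the receptor for granulocyte CSF (G-CSF); and Csf1, which encodes M-CSF. The 6 genes were taken by symbol out of 54532 rows of the deposited table, and each matched 1 Ensembl gene. All 6 reached 1 FPKM (fragments per kilobase of exon, divided by a denominator for each library) in every library. Total RNA of myeloid cells from C57BL/6 mice aged 6 to 8 weeks was sequenced in 9 libraries, 3 each from mice labelled KO (SOCS3 knockout), Gr_1 (wild type) and fl (wild type). The labels explain neither of the names Gr_1 and fl, nor which cells of the KO mice carry the deletion, nor whether each library is a separate animal. P-values therefore measure the spread between these 9 libraries only, and that spread may be technical.

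M-CSF signals through Csf1r, a receptor tyrosine kinase, and drives survival and maturation of monocytes and macrophages. The receptors for GM-CSF and G-CSF have no kinase of their own and signal through JAK kinases, with STAT5 prominent after GM-CSF and STAT3 after G-CSF. SOCS3 binds the activated G-CSF receptor and limits its signal, which is why the G-CSF receptor is of interest in cells lacking it. In mature blood cells Csf3r is typical of neutrophils and Csf1r of monocytes and macrophages.

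Recovered depth lay between 18.3 and 21.5 M fragments per library. Against fl, Socs3 was higher and not lower under the label KO, at 9.23, 6.76 and 8.37 FPKM, against 37.0, 36.6 and 33.0 FPKM in Gr_1 and 3.87, 4.02 and 3.40 FPKM in fl, so the level of this gene does not show the genotype and every direction given for KO rests on the label. The labelled cell type was checked by marker genes: all 13 late neutrophil and all 10 monocyte markers were tested, while B and plasma cell markers were also present, at 209 to 253 FPKM summed over 8 genes in libraries labelled KO, 636 to 695 in Gr_1 and 237 to 273 in fl. Library KO C lay between KO A and KO B in 61.5% of 12289 genes. The other 8 libraries lay between those of their own group in 15.6% to 44.4%. KO C also carried both the female-specific RNA Xist (26.3 FPKM) and the Y-linked gene Ddx3y (5.31 FPKM), where KO A had Xist at 0.0028 and Ddx3y at 9.62 FPKM and KO B had 58.5 and 0 FPKM. Whether KO C is independent of KO A and KO B was not tested, and the tests of the 6 genes and the counts of markers in KO against fl are given with and without it. The number of genes called in KO against fl was 1352, and 573 without KO C. In the Gr_1 and fl libraries Xist was at most 0.0104 FPKM and Ddx3y at 5.46 to 13.1 FPKM, so a difference in sex cannot be told apart from the label KO in KO B and KO C.

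The start regions of 4 of the 6 genes are given from the RefSeq promoter table (GRCm38.p6). They are shown because PU.1, C/EBP and STAT factors are known to act on myeloid receptor genes. Each runs 5′ to 3′ on the gene's strand from 250 bases before to 50 bases after the RefSeq start. Capitals mark matches, on either strand, to GAGGAA (the core of PU.1 sites), TTGCNNAA (C/EBP) and TTCNNNGAA (STAT), with N standing for any base.
Csf3r, chr4:126024409-126024708, plus strand: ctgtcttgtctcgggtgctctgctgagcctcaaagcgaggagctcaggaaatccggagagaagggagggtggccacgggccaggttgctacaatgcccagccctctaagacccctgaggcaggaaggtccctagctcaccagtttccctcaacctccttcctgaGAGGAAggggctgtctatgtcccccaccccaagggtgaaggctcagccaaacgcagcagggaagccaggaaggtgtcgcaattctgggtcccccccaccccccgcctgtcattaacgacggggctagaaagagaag
Csf2ra, chr19:61228369-61228668, minus strand: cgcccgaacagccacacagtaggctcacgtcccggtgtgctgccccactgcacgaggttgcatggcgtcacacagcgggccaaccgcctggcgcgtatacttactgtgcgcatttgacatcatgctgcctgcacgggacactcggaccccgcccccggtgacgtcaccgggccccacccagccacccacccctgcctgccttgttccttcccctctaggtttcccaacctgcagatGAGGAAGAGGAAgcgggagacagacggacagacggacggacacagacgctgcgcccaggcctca
Csf2rb2, chr15:78305672-78305971, minus strand: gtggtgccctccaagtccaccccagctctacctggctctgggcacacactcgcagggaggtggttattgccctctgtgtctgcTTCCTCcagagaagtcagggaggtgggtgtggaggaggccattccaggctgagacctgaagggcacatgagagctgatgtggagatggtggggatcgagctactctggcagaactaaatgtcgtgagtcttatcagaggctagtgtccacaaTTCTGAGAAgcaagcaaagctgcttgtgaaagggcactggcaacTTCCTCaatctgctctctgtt
Csf1, chr3:107760420-107760719, minus strand: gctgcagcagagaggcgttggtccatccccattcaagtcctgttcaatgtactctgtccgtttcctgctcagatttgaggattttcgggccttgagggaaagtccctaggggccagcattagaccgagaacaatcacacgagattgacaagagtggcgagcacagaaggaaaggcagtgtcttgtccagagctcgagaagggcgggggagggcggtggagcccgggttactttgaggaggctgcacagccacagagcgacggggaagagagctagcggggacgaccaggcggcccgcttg
The Csf3r window held 1 PU.1 core, 86 bases before the RefSeq start. In GENCODE M21 the gene begins at 126024550, so by those coordinates this match lies inside it. The Csf2ra window held 2 in a row, beginning 14 and 8 bases before the start. The Csf2rb2 window held 2, both read on the opposite strand, and 1 STAT match, beginning 15 bases before the start, and the Csf1 window held none of the 3 motifs. No window held the C/EBP letters, and no matches to different motifs overlapped. Of 32851 promoters of 300 bases, 28.3% held the PU.1 core, 10.8% the C/EBP letters and 8.30% the STAT letters, so a match to the PU.1 core is common. Csf1r and Csf2rb are named only.

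Csf3r, the receptor through which G-CSF drives neutrophil production, was high in every library and highest in Gr_1. Its levels were 235, 128 and 176 FPKM in the KO libraries A, B and C, 562, 583 and 527 FPKM in Gr_1 and 98.8, 98.4 and 97.9 FPKM in fl. The groups did not overlap, the fl libraries lay within 1 FPKM of each other, and the libraries labelled KO were spread widely, with KO A highest and KO B lowest. Means were 179 ± 53.5 FPKM in KO, 558 ± 28.1 in Gr_1 and 98.4 ± 0.476 in fl (SD, n = 3 each), resting on 6531 to 38200 fragments per library. Csf3r (ENSMUSG00000028859) lies on the plus strand of chromosome 4 from 126024550 to 126044440 (GRCm38), and its level exceeded that of 95.8% to 99.6% of the tested genes of a library.

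Against fl, Csf3r rose in the libraries labelled KO by 0.82 ± 0.18 (standard error) in log2(FPKM + 1), a ratio of mean FPKM of 1.82 (limma, adjusted p = 0.0226, higher in 3 of 3 libraries). This call did not hold without KO C (log2 change 0.81, adjusted p = 0.0821), fl A (0.82, 0.0652), fl B (0.82, 0.0715) or fl C (0.81, 0.0564), nor with no filter on low values (adjusted p = 0.0631) or with the KO and fl libraries fitted alone (adjusted p = 0.0694). In Gr_1 it rose against fl by 2.49 ± 0.18 (ratio 5.67, adjusted p = 8.77e-06). Against Gr_1 it fell in the libraries labelled KO by 1.67 ± 0.18 (adjusted p = 0.000125; 0.000914 without KO C), to a mean 3.11-fold lower. By exact permutation of the libraries, two-sided, p was 0.1, the smallest it allows, for each of these 3 differences.

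Markers of late neutrophils moved with Csf3r, and those of early granulocytes did not. Ly6g, a surface antigen of mouse neutrophils, had 152, 62.0 and 108 FPKM in the KO libraries A, B and C, 706, 715 and 633 in Gr_1 and 11.4, 10.4 and 8.21 in fl, the same order of groups and of libraries labelled KO as Csf3r. Of the 13 late neutrophil markers, 9 rose and 0 fell in the libraries labelled KO against fl, with a summed level of 22614 to 32492 FPKM in KO and 20442 to 25389 in fl. Without KO C, 7 rose and 0 fell. In Gr_1 against fl 12 rose and 0 fell, at 51927 to 52975 FPKM. Of 6 early granulocyte markers, 0 were called in KO against fl, 6 fell in Gr_1 against fl and 6 were higher in KO than in Gr_1, with sums of 4206 to 7683 FPKM in KO, 510.2 to 649 in Gr_1 and 4887 to 6977 in fl. Among the libraries labelled KO their sum was highest in KO B, where Csf3r was lowest. Beside these and the later marker counts, 4.48% of all tested genes were called higher and 6.52% lower in KO against fl. In Gr_1 against fl the shares were 30.0% and 31.4%, and in KO against Gr_1 26.7% and 28.9%. The part of cell composition in the Csf3r differences was not tested, and in these bulk samples fewer cells of a type and less RNA per cell cannot be told apart.

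**Figure D1:**
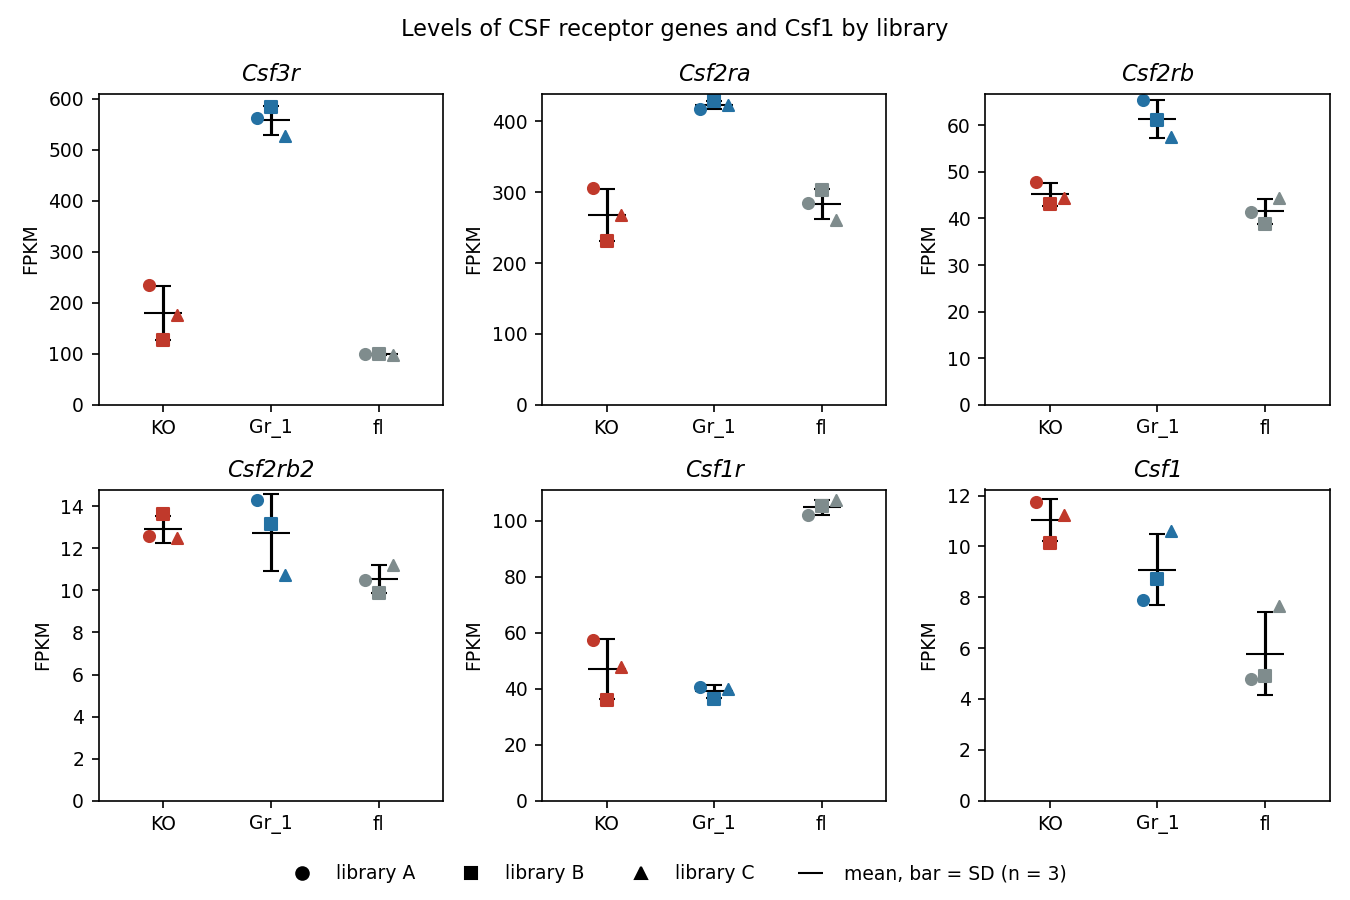
Level in FPKM (y axis, from 0) of each gene in the 3 libraries labelled KO, the 3 Gr_1 and the 3 fl libraries; points are libraries, horizontal marks means and bars SD (n = 3). Csf3r is highest in Gr_1 (527 to 583 FPKM), Csf1r in fl (102 to 107 FPKM).

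Of the GM-CSF and interleukin 3 receptor genes, Csf2ra and Csf2rb were higher in Gr_1 than in fl, while no difference between the libraries labelled KO and fl passed the test. Csf2ra encodes the ligand-binding alpha chain. It had 305, 231 and 268 FPKM in the KO libraries A, B and C, 418, 429.5 and 423 FPKM in Gr_1 and 285, 303 and 261 FPKM in fl. The Gr_1 libraries stood above all others, and the KO and fl libraries overlapped. The fitted change was -0.08 ± 0.11 for KO against fl (adjusted p = 0.658; 0.754 without KO C), a sign that turned without KO B, under quantile normalization and without the 10 most abundant genes. It was 0.58 ± 0.11 for Gr_1 against fl (ratio 1.50, adjusted p = 0.00138), and Csf2ra fell by 0.67 ± 0.11 in the libraries labelled KO against Gr_1 (adjusted p = 0.000861; 0.00471 without KO C). Scaled to library totals these changes were 0.29 (adjusted p = 0.0295) and -0.33 (adjusted p = 0.0177). Csf2ra (ENSMUSG00000059326) occupies chromosome 19 between 61223957 and 61228429, minus strand.

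Csf2rb encodes the common beta chain, shared in mouse by the receptors for GM-CSF, interleukin 3 and interleukin 5. Levels were 47.9, 43.1 and 44.5 FPKM in the KO libraries A, B and C, 65.5, 61.2 and 57.5 FPKM in Gr_1 and 41.3, 38.9 and 44.4 FPKM in fl. Again the Gr_1 libraries stood above both other groups, which overlapped. Csf2rb rose in Gr_1 against fl by 0.55 ± 0.08 (ratio 1.48, limma, adjusted p = 0.000278; 0.26 and 0.00388 scaled to library totals) and fell by 0.43 ± 0.08 in the libraries labelled KO against Gr_1 (adjusted p = 0.00144; 0.00831 without KO C). That fall was 0.10 and not called when libraries were scaled to their totals (adjusted p = 0.172). For KO against fl the change was 0.12 ± 0.08 (adjusted p = 0.361; 0.495 without KO C).

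Csf2rb2 encodes a beta chain found in mice that serves interleukin 3 alone, beside the alpha chain Il3ra. It had 12.6, 13.6 and 12.5 FPKM in the KO libraries A, B and C, 14.3, 13.2 and 10.7 FPKM in Gr_1 and 10.5, 9.88 and 11.2 FPKM in fl. The libraries labelled KO all stood above those of fl, and Gr_1 C lay among the fl libraries. Neither change against fl passed the test, at 0.27 ± 0.10 for KO (adjusted p = 0.127; 0.233 without KO C) and 0.25 ± 0.10 for Gr_1 (adjusted p = 0.0596), nor did KO against Gr_1 (0.03 ± 0.10, adjusted p = 0.843; 0.775 without KO C). Without Gr_1 C the change of Gr_1 against fl was 0.36 and called (adjusted p = 0.00676). It was also called with a filter at 5 FPKM (adjusted p = 0.0495) and with voom (adjusted p = 0.0458), and that of KO against fl was called without the 10 most abundant genes (0.35, adjusted p = 0.0369). Scaled to library totals, Csf2rb2 stood at -0.03 for Gr_1 against fl (adjusted p = 0.822) and was called for KO against Gr_1 (0.34, adjusted p = 0.0124).

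Csf2rb and Csf2rb2 are neighbours on chromosome 15, between 78325752 and 78353847 (plus strand) and between 78282507 and 78305721 (minus strand). Their longest coding transcripts in GENCODE M21 were identical at 91.4% of 4620 aligned bases. Of the distinct stretches of 125 bases in Csf2rb2 transcripts, 5.02% also occurred in Csf2rb, and of those in Csf2rb transcripts 4.63% occurred in Csf2rb2. How fragments from shared stretches were divided was not tested, and since Csf2rb is the higher gene, such fragments weigh more in the values of Csf2rb2 and in the ratio of the genes. Within a library the level of Csf2rb over that of Csf2rb2 was 3.81, 3.16 and 3.55 in the KO libraries A, B and C, 4.58, 4.64 and 5.36 in Gr_1 and 3.93, 3.94 and 3.96 in fl. The ratio was thus highest in Gr_1, and in the libraries labelled KO it was below that of every fl library. The alpha chain Csf2ra exceeded Csf2rb by 5.36 to 6.37-fold in KO, 6.37 to 7.35-fold in Gr_1 and 5.88 to 7.79-fold in fl, and these ranges overlap.

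Basophils and mast cells respond to interleukin 3, and their markers were higher in the libraries labelled KO: 6 of the 7 tested rose and 0 fell against fl, with sums over the 9 listed of 354 to 481 FPKM in KO, 96.0 to 179 in Gr_1 and 103 to 223 in fl. Without KO C, 2 of 7 rose and 0 fell. Mcpt4, a connective tissue mast cell protease, was below 0.1 FPKM in every library. Among the libraries labelled KO the basophil and mast cell sum was highest in KO B (481 FPKM), as was Csf2rb2, whereas in Gr_1 it was highest in Gr_1 C (179 FPKM), where Csf2rb2 was lowest. The part of these cells in the Csf2rb2 values was not tested.

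Csf1r was lower in both other groups than in fl. It had 57.3, 36.1 and 47.9 FPKM in the KO libraries A, B and C, 40.8, 36.3 and 40.0 FPKM in Gr_1 and 102, 105 and 107 FPKM in fl. Every fl library stood above every other, and the KO and Gr_1 libraries overlapped. Csf1r fell by 1.16 ± 0.14 in the libraries labelled KO against fl (limma, adjusted p = 0.00179; -1.19 and 0.0108 without KO C), to a mean of 47.1 ± 10.6 FPKM, 2.23-fold lower than in fl. In Gr_1 it fell by 1.41 ± 0.14 against fl (adjusted p = 4.91e-05), 2.69-fold lower. These calls held in all 18 alternative fits. Between KO and Gr_1 the change was 0.24 ± 0.14 and not called (adjusted p = 0.177; 0.323 without KO C). It was called higher in the libraries labelled KO without KO B (0.42, adjusted p = 0.00698), without the 10 most abundant genes (0.43, 0.0288), under quantile normalization (0.46, 0.0169) and scaled to library totals (0.57, 0.00386).

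Csf1r (ENSMUSG00000024621) lies on the plus strand of chromosome 18 from 61100598 to 61132149. Of its exon bases, 15.1% are shared with exons of Hmgxb3 on the opposite strand, which had 3.78 to 6.47 FPKM, and whether the counting used strand is not stated in the labels. Against fl, monocyte markers moved with Csf1r: 8 of 10 fell and 0 rose in the libraries labelled KO (6 and 0 without KO C). Their sums were 1317 to 1468 FPKM in KO, 1069.8 to 1209.7 in Gr_1 and 2639 to 2725 in fl. In Gr_1 against fl 9 of 10 fell. In KO against Gr_1, however, 7 were higher and 1 lower, with and without KO C, and the sums did not overlap, whereas Csf1r was not called there. Of 8 tested macrophage markers, 1 rose and 3 fell in the libraries labelled KO against fl (1 and 1 without KO C), and 5 rose and 3 fell in Gr_1 against fl. Fn1, the fibronectin gene of the monocyte list, had 89.2, 88.2 and 87.5 FPKM in KO, 24.2, 22.8 and 33.0 in Gr_1 and 261, 266 and 243 in fl. Its KO and Gr_1 libraries did not overlap, like the sums of the list and unlike Csf1r. The part of monocyte content in the Csf1r differences was not tested.

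Csf1, the ligand of Csf1r, was the lowest of the 6 genes in each group. Its levels were 11.7, 10.1 and 11.2 FPKM in the KO libraries A, B and C, 7.89, 8.73 and 10.6 FPKM in Gr_1 and 4.78, 4.92 and 7.67 FPKM in fl. All fl libraries lay below the others, with fl C nearest to Gr_1 A, and KO and Gr_1 overlapped. Csf1 rose against fl by 0.85 ± 0.16 in the libraries labelled KO (ratio 1.91, limma, adjusted p = 0.0123) and by 0.59 ± 0.16 in Gr_1 (ratio 1.57, adjusted p = 0.0119). The rise in KO was no longer called without KO C (0.84, adjusted p = 0.0527) or fl B (0.76, adjusted p = 0.0501). The rise in Gr_1 was 0.33 and not called when libraries were scaled to their totals (adjusted p = 0.0845). KO against Gr_1 gave 0.26 ± 0.16 (adjusted p = 0.197; 0.321 without KO C). Of the 18 alternative fits it was called only without the 10 most abundant genes (0.44, 0.0329) and scaled to library totals (0.57, 0.00952). T cell markers, a list of 8 genes of which 3 were tested, had sums of 9.14 to 11.3 FPKM in KO, 7.81 to 10.4 in Gr_1 and 2.33 to 3.64 in fl. All 3 rose in KO against fl (2 of 2 tested without KO C) and 2 rose in Gr_1 against fl. NK cell markers had 4 of 4 tested higher in KO against fl (1 of 3 without KO C) and 2 lower in Gr_1 against fl, with sums of 13.4 to 27.1 FPKM in KO, 2.41 to 3.35 in Gr_1 and 6.94 to 9.91 in fl. Fewer genes of both lists were tested without KO C, so part of each list passed the filter only with KO C counted. The full counts for KO are therefore not independent of the filter. The part of these cells in the Csf1 differences was not tested. Csf1 (ENSMUSG00000014599) occupies chromosome 3 between 107741048 and 107760469, minus strand.

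**Figure D2:**
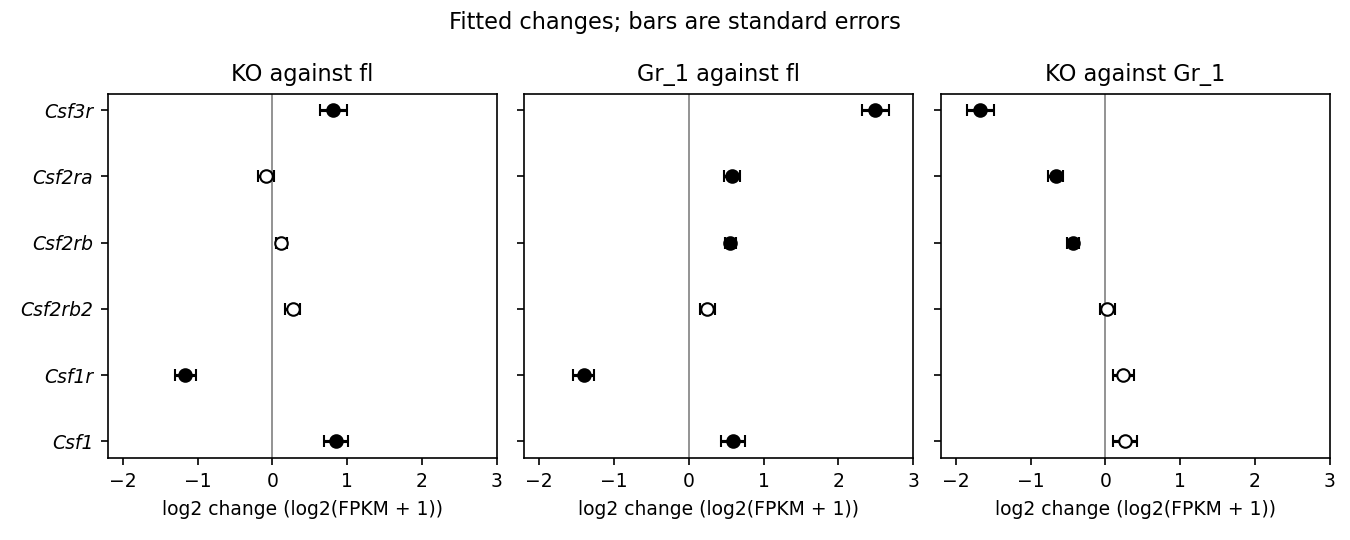
Fitted change in log2(FPKM + 1) (x axis) of the 6 genes in each comparison, positive where the first-named group is higher; bars are standard errors and filled points have an adjusted p under 0.05. Csf1r and Csf1 lie on opposite sides of 0 against fl in both KO and Gr_1.

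Read together, 3 of the 6 genes were called for KO against fl (Csf3r and Csf1 higher, Csf1r lower), where 11.0% of all 12289 tested genes were called, 4.48% higher and 6.52% lower. Without KO C only Csf1r of the 6 was called, where 573 of 12175 tested genes were called. In Gr_1 relative to fl, 5 of the 6 were called (Csf1r lower; Csf3r, Csf2ra, Csf2rb and Csf1 higher), where 61.4% of all tested genes were, 30.0% higher and 31.4% lower. In KO relative to Gr_1, 3 of the 6 were called, each of them lower in the libraries labelled KO (Csf3r, Csf2ra and Csf2rb), where 55.7% of all tested genes were, 26.7% higher and 28.9% lower. Libraries did not overlap between KO and fl for 4 of the 6 genes (31.4% of all tested genes, 13.5% higher and 17.9% lower). The same held between Gr_1 and fl for 5 genes (67.5%, 32.7% higher and 34.8% lower) and between KO and Gr_1 for 3 (68.2%, 33.6% higher and 34.6% lower). With calls this common in comparisons with Gr_1, the counts there say little about the 6 genes. The 2 comparisons against fl share the fl libraries and are not independent. The split of all calls depended on scaling. It was 551 higher and 801 lower in KO relative to fl (804 and 573 without the 10 most abundant genes), 3686 and 3864 in Gr_1 relative to fl (2367 and 5925 scaled to library totals), and 3287 and 3556 in KO relative to Gr_1 (6037 and 2023 scaled to library totals). Scaling to library totals set the median of all tested genes at -0.26 in Gr_1 relative to fl, in place of -0.03, and at 0.28 in KO relative to Gr_1, in place of 0.01.

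The order of the receptor levels differed between groups. In libraries labelled KO the means ran from Csf2ra (268 ± 37.1 FPKM) through Csf3r (179 ± 53.5), Csf1r (47.1 ± 10.6) and Csf2rb (45.2 ± 2.45) to Csf2rb2 (12.9 ± 0.636) and Csf1 (11.0 ± 0.817), and the ranges of Csf2ra and Csf3r and those of Csf1r and Csf2rb overlapped. In Gr_1 Csf3r came first (558 ± 28.1 FPKM), before Csf2ra (423 ± 6.01), Csf2rb (61.4 ± 4.01), Csf1r (39.0 ± 2.41), Csf2rb2 (12.7 ± 1.83) and Csf1 (9.08 ± 1.40), with no overlap between neighbours. In fl Csf2ra led (283 ± 21.2 FPKM), followed by Csf1r (105 ± 2.69) and Csf3r (98.4 ± 0.476), then Csf2rb (41.5 ± 2.75), Csf2rb2 (10.5 ± 0.664) and Csf1 (5.79 ± 1.63), again with no overlap between neighbours.

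The groups did not overlap in the balance of the G-CSF and M-CSF receptors. The level of Csf3r over that of Csf1r was 4.10, 3.54 and 3.67 in the KO libraries A, B and C, 13.8, 16.1 and 13.2 in Gr_1 and 0.969, 0.934 and 0.912 in fl. Relative to its mean, the ratio had an SD of 7.69% in KO, less than that of Csf3r (29.8%) or Csf1r (22.6%) there, both of which were highest in KO A and lowest in KO B. In Gr_1 its SD was 10.6%, more than that of Csf3r (5.04%) or Csf1r (6.18%), and in fl it was 3.05%, also more than that of Csf3r (0.484%) or Csf1r (2.56%). The level of Csf1r over that of its ligand gene Csf1 was 4.88, 3.56 and 4.26 in the KO libraries A, B and C, 5.16, 4.15 and 3.77 in Gr_1 and 21.4, 21.4 and 14.0 in fl. Here KO and Gr_1 overlapped, and fl stood apart from both.

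**Figure D3:**
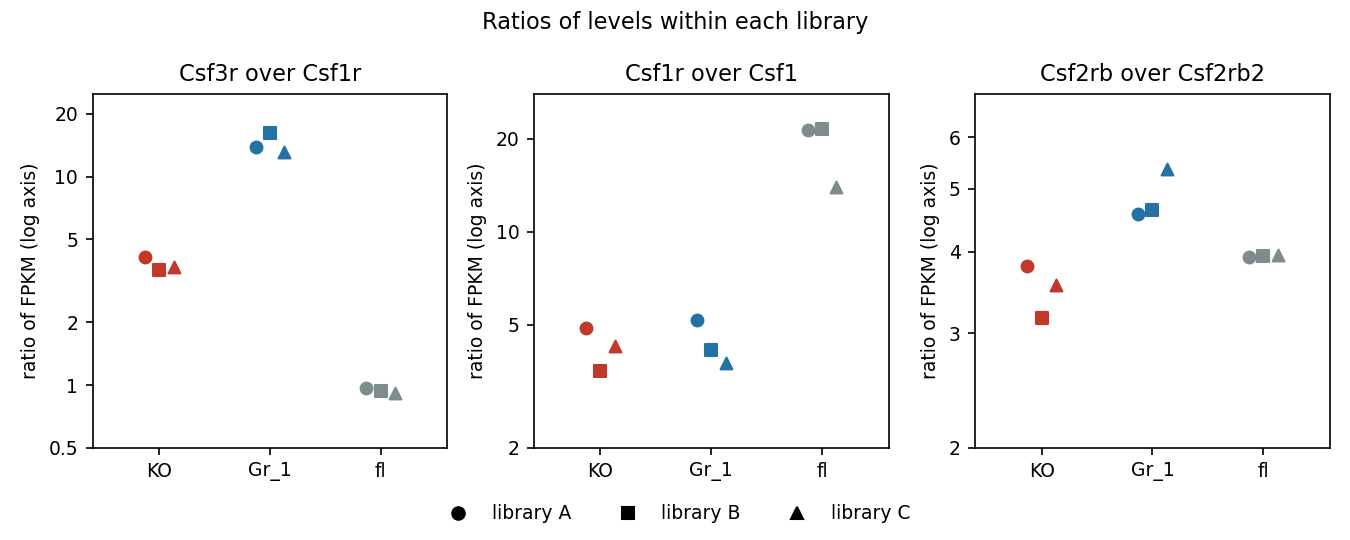
Ratio of the FPKM of 2 genes within each library (y axes are logarithmic) in the libraries labelled KO, Gr_1 and fl; each point is 1 library. Csf3r over Csf1r lies at 3.54 to 4.10 in KO, 13.2 to 16.1 in Gr_1 and 0.912 to 0.969 in fl.

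Genes of the pathway around these receptors were read from a list of 52 genes, of which 46 were tested. Ligands other than Csf1 were at or near 0. Il3 and Il5 had 0 fragments in all 9 libraries, which allows up to 0.298 and 0.122 FPKM in a library (3 fragments). Csf2, the GM-CSF gene, had 8 fragments in all and Csf3, the G-CSF gene, 9, with no more than 4 and 3 in any library. Il34, a further ligand of Csf1r, had 20. The alpha chains that pair with the common beta chain were expressed: Il3ra had 12.9 ± 1.23 FPKM in KO and 16.0 ± 0.241 in fl (-0.30 in log2, adjusted p = 0.0815; 0.106 without KO C), and Il5ra, typical of eosinophils, had 4.61 ± 1.55 FPKM in KO and 2.87 ± 0.356 in fl (0.50, adjusted p = 0.134; 0.279 without KO C). In Gr_1 Il3ra was at 8.87 ± 1.11 FPKM, lower than in fl (-0.79, adjusted p = 0.000119), and it was higher in KO than in Gr_1 (0.49, adjusted p = 0.00213), as was Il5ra (0.76, adjusted p = 0.00845). Eosinophil markers summed to 6904 to 12223 FPKM in KO, 2258 to 2783 in Gr_1 and 6093 to 11742 in fl. Of the 8, 1 rose in KO against fl (0 of 8 without KO C) and 7 fell in Gr_1 against fl. In KO against Gr_1, 7 were higher, with and without KO C. The part of eosinophils in the Il5ra differences was not tested.

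For KO against fl, 1 of the 46 tested genes rose and 4 fell, which is 10.9% beside 11.0% of all tested genes, and the list's median change was -0.08 beside -0.01 over all. Without KO C, 1 rose and 3 fell. Socs3 rose by 0.93 ± 0.11 (limma, adjusted p = 0.00136; 0.0104 without KO C). The survival kinase gene Pim1 fell to 81.9 ± 4.29 FPKM in KO, against 125 ± 16.3 in fl (-0.60 ± 0.10, adjusted p = 0.00614; 0.0327 without KO C), a call lost under quantile normalization (-0.43, adjusted p = 0.0575). The JAK family gene Tyk2 fell to 14.7 ± 0.785 FPKM, against 21.3 ± 1.60 in fl (-0.51 ± 0.07, adjusted p = 0.00307; 0.018 without KO C). Irf8, a transcription factor of the monocyte lineage, fell to 14.1 ± 1.72 FPKM, against 24.6 ± 1.76 in fl (-0.76 ± 0.09, adjusted p = 0.00174; 0.0108 without KO C). The Src family kinase gene Lyn fell by 0.39 ± 0.10 (adjusted p = 0.0435), a call lost in 13 of 18 alternative fits, among them those without KO B (adjusted p = 0.0698) and KO C (0.126), without any fl library (0.0504 to 0.126) and without any Gr_1 library (0.0639 to 0.0711). Jak2, the kinase of the GM-CSF receptor, had 21.2 ± 0.719 FPKM in KO and 16.1 ± 2.98 in fl (not called, adjusted p = 0.0737; 0.183 without KO C), and Stat3, Stat5a and Stat5b had changes of -0.03, -0.10 and -0.13 (none called, adjusted p = 0.808, 0.353 and 0.353; 0.855, 0.532 and 0.482 without KO C). Of the regulators of the receptor genes, Spi1 (which encodes PU.1) changed by -0.15, Cebpa by -0.39, Cebpb by -0.75 and Cebpe by 0.09, none called (adjusted p = 0.481, 0.176, 0.0677 and 0.633; 0.567, 0.288, 0.0505 and 0.828 without KO C).

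For Gr_1 against fl, 25 of the 46 rose and 7 fell, 69.6% beside 61.4% of all tested genes, with a median change of 0.36 beside -0.03. Scaled to library totals 32 of the list were called, where the median of all tested genes was -0.26. The directions and changes of the listed genes under that scaling are not given here, so the split and the median hold for the deposited scaling only. Cish, a STAT5 target, reached 1 FPKM in Gr_1 libraries alone and so passed the filter only through the group where it is high; without it 24 of 45 rose and 7 fell, 68.9%. Among kinases 6 of 9 rose and 1 fell, and Stat3 and Stat5b rose while Stat5a fell. Spi1 rose to 331 ± 23.2 FPKM in Gr_1, against 228 ± 28.3 in fl (adjusted p = 0.00388), while Cebpa fell to 22.6 ± 1.43 FPKM, against 58.8 ± 15.8 (adjusted p = 0.000162), and Irf8 fell to 9.90 ± 0.378 FPKM, against 24.6 ± 1.76 (adjusted p = 1.01e-05). For KO against Gr_1, 8 rose and 26 fell, 73.9% beside 55.7% of all tested genes, with a median of -0.47 beside 0.01. Here too the split and the median hold for the deposited scaling only. Scaled to library totals 37 of the list were called, where the median of all tested genes was 0.28. Without Cish 8 of 45 rose and 25 fell, and without KO C 7 of 46 rose and 25 fell.

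**Figure D4:**
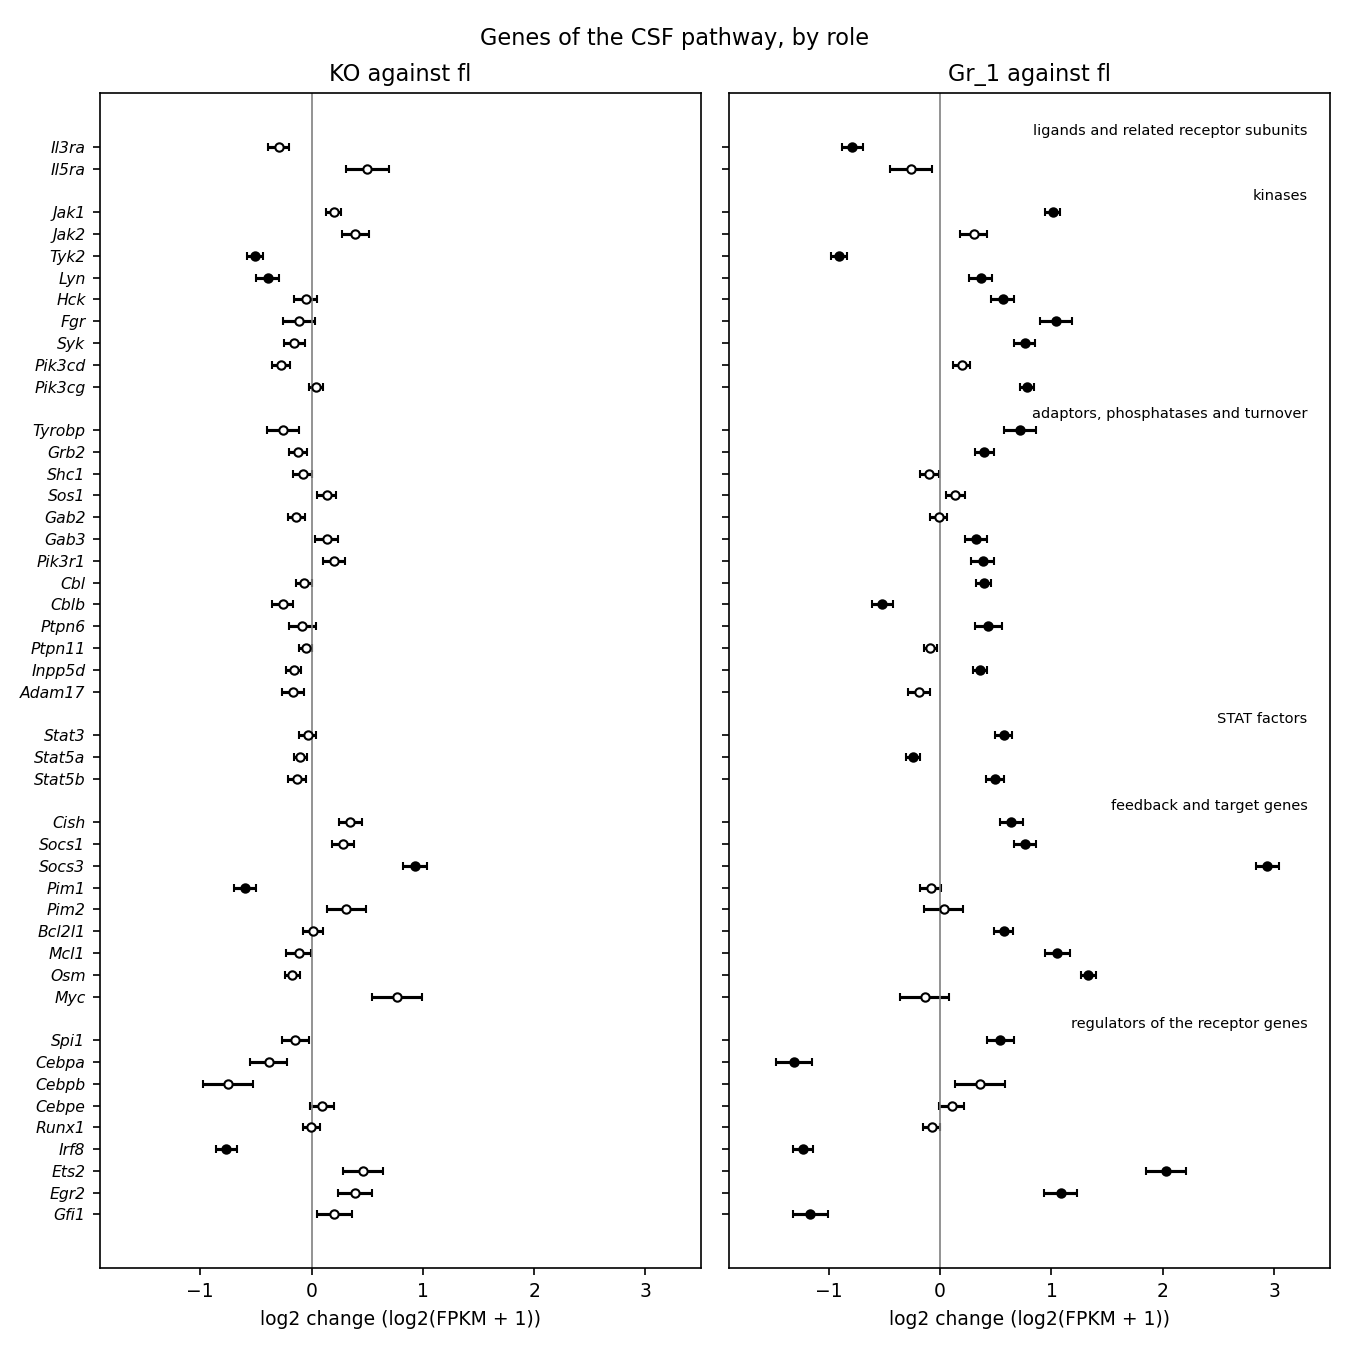
Fitted change in log2(FPKM + 1) (x axis) of 45 tested pathway genes, by role, for KO against fl (left) and Gr_1 against fl (right), comparisons that share the fl libraries; bars are standard errors and filled points have an adjusted p under 0.05. The left panel has 5 filled points and the right panel 31.

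Genes with the most similar profiles were sought among 10131 protein-coding genes by Pearson's r of log2(FPKM + 1) over the 9 libraries. Where the group means of a gene differ, these values follow them in part, and how large that part is was not measured. Nearest to Csf3r were Dennd3, St3gal6 and Sema4f (r = 0.999 for each). Nearest to Csf1r were Camkk2, Rap2b and Cd68 (0.996, 0.995 and 0.995). Cd68 is on the macrophage list, of which 5 of 8 tested genes rose and 3 fell in Gr_1 against fl, so the list as a whole did not follow Csf1r. Csf2ra was closest to Stk38, Hacd4 and Exoc3 (0.995, 0.994 and 0.994), and Csf2rb to Flot1, Vasp and Capn1 (0.993, 0.992 and 0.991). The 2 low genes had weaker matches, with Gclm and Traf7 for Csf2rb2 (0.942 and 0.927) and Oscp1, Mc5r and Rasal3 for Csf1 (0.954, 0.927 and 0.924). After the group means were taken out, which leaves the spread inside groups, the nearest genes were Rab11fip4, 6430548M08Rik and Tbc1d14 for Csf3r (0.997, 0.996 and 0.995) and Atp6v0b, Arrdc1 and Lyz1 for Csf1r (0.993, 0.988 and 0.986). For Csf2ra they were Ptgs2, Map4k4 and Rnpc3 (0.990, 0.984 and 0.983), for Csf2rb Zfp513, Flot2 and Hdac7 (0.994, 0.994 and 0.989), for Csf2rb2 Ints7 and Fam114a2 (0.984 and 0.982) and for Csf1 Klf13, Ngrn and Phactr4 (0.981, 0.980 and 0.969). Csf3r and Csf1r had r = -0.76 over all libraries and 0.91 after the group means were taken out. Relative to the mean, their SD was 29.8% and 22.6% in KO, 5.04% and 6.18% in Gr_1, and 0.484% and 2.56% in fl. Their values with group means taken out therefore rest largely on the KO libraries. For Csf2ra the SD was 13.8% in KO, 1.42% in Gr_1 and 7.49% in fl. All nearest genes were picked as the highest of 10131 r values over 9 libraries. A high r thus owes part of its size to that choice, and none of these values was tested.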

How the data were processed

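The deposited table gives 1 FPKM value per gene and library, per the file headers. The submitters' processing notes name featureCounts (1.5.0-p3), DESeq2 (1.16.1) and the builds mm10 and GRCm38; no aligner is named there. Symbols, exon lengths and coordinates came from GENCODE M21 (GRCm38), which matched 54495 of 54532 genes. FPKM times exon length gave whole fragments within 0.02 for 97.2% to 97.5% of values below 1000 fragments per library, and 3 fragments on 1 kilobase equal 0.136 to 0.187 FPKM. Such floors cover counting error only.

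The 12289 genes that reached 1 FPKM in 3 or more libraries were fitted as log2(FPKM + 1) by limma-trend (limma 3.58.1 under R 4.3.3), 1 term per group over all 9 libraries and 6 residual degrees of freedom. The fold on this scale understates changes of low genes, and ratios are of mean FPKM. Tests were two-sided and Benjamini-Hochberg adjusted over all genes tested, with calls at an adjusted p under 0.05. Alternatives were another pseudocount (0.1), other filters, other scalings, the 2 groups alone, a replicate block, voom on recovered fragments and leaving out each library; scaling to library totals and the count without Cish were added after the data were seen. The 6 genes and all lists were chosen with earlier results of these data known. Named pathway genes are those called for KO against fl and 14 that the naming rule lists, and like genes are the 3 with the highest r; a few genes these rules or lists hold are not reported here. Python 3.11.15, pandas 2.3.3, scipy 1.17.1 and matplotlib 3.10.9 were used.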

Additional observations from a re-analysis of the deposited data

How the results depend on the processing

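Each difference of the 6 genes was refitted under 18 alternatives. Csf1r, Csf2ra, Csf2rb and Csf3r kept their calls for Gr_1 against fl, Csf1r for KO against fl, and Csf3r and Csf2ra for KO against Gr_1, in all 18, though scaling to library totals brought Csf2ra and Csf2rb for Gr_1 against fl to 0.29 and 0.26 and Csf2ra for KO against Gr_1 to -0.33. Csf3r for KO against fl was not called with no filter or with 2 groups alone (log2 change 0.82 in both). Without the 10 most abundant genes, Csf2rb2 for KO against fl (0.35) and Csf1r and Csf1 for KO against Gr_1 (0.43 and 0.44) became called, and Csf2ra for KO against fl turned to 0.0019. Under quantile normalization Csf2ra turned to 0.068 and Csf1r for KO against Gr_1 was called (0.46). Scaled to library totals, Csf2rb2 for Gr_1 against fl turned to -0.027, Csf1 for Gr_1 against fl (0.33) and Csf2rb for KO against Gr_1 (-0.10) lost their calls, and Csf1r, Csf2rb2 and Csf1 for KO against Gr_1 gained one (0.57, 0.34 and 0.57). Csf2rb2 for Gr_1 against fl was called with a filter at 5 FPKM (0.25) and with voom (0.27). Scaling to library totals replaced the denominator of each library's deposited FPKM by its recovered fragments. Those denominators were 16.0 to 18.2 M in Gr_1, 19.9 to 21.7 M in KO and 18.5 to 22.0 M in fl. In Gr_1 each lay below the recovered total (18.6 to 21.5 M). In KO and fl each lay above it (19.0 to 20.1 M and 18.3 to 20.8 M). Why they differ was not tested, nor was the cause of the other shifts.

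Leaving out 1 library at a time, the change for KO against fl ranged from 0.60 to 1.04 for Csf3r, 0.75 to 1.04 for Csf1 and -0.18 to 0.018 for Csf2ra, which turned without KO B. For Gr_1 against fl Csf2rb2 ranged from 0.16 to 0.36. For KO against Gr_1 Csf1r ranged from 0.091 to 0.42 and Csf2rb2 from -0.084 to 0.11, turning without Gr_1 C (-0.084) and without KO B (-0.01). Calls for KO against fl numbered 1352 in all, 573 to 1261 with a library left out (lowest when KO C was out, then 730 for fl B and 818 for fl A), and 794 with 2 groups alone. The pathway list had 5 calls there, 8 scaled to library totals and 9 with voom.

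Libraries that share a letter did not deviate together throughout (correlations of deviations from group means -0.06 to 0.14), so letters were not taken as pairs. With the replicate block, calls for KO against fl numbered 1037, Csf3r had an adjusted p of 0.0358, Lyn lost its call (0.0638), and no call among the 6 genes changed. Depth does not limit the 6 genes, which had at least 539 fragments per library, but does limit Csf2, Csf3, Il3 and Il5.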
